A study of Mus musculus with 2 samples.

Results

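The cells described here were the mouse retinal bipolar cells (BCs) of cluster 20 in the clustering deposited with a single-cell RNA-seq (scRNA-seq) study of Ptbp1. They were chosen as cells with the deposited name BC in the cluster that held the third largest number of BCs among the clusters numbered above 13, and no measured gene entered that choice. Cluster 20 held 309 BCs, 160 from the Ptbp1-Ctrl library and 149 from the Ptbp1-KO library, of 5743 BCs and 30943 cells in all. The clusters ranked around it, 19 and 21, held 319 and 199 BCs, and BCs were found in 10 clusters.

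Bipolar cells carry signals from photoreceptors to amacrine and ganglion cells through ribbon synapses. ON types answer light through the glutamate receptor mGluR6 (Grm6), a G protein cascade and the channel Trpm1, whereas OFF types use ionotropic receptors such as Grik1. Rod bipolar cells are marked by Prkca, and the several types of ON and OFF cone bipolar cells are told apart by combinations of adhesion molecules, ion channels and transcription factors. Type 5 cells are ON cone bipolar cells that themselves fall into subtypes.

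The product of Ptbp1 binds RNA and holds back neuronal splice forms, and the study asked whether the retina forms normally without it. Whole retinas of mice at postnatal day 30 (P30) were dissociated with papain, and droplet 3′ libraries were made from 1 mouse of each genotype. The Ptbp1-Ctrl mouse was Chx10-Cre;Ptbp1+/+ and the Ptbp1-KO mouse Chx10-Cre;Ptbp1lox/lox, so that both carried the Cre transgene, which is active in retinal progenitors and in mature bipolar cells. The loxP sites enclosed the promoter and first exon of Ptbp1. With 1 library per genotype, no difference between genotypes could be tested, and genotype, animal and library cannot be told apart. Intervals given below are 95% intervals that cover counting error only, and paired values stand in the order Ptbp1-Ctrl, Ptbp1-KO.

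In the cluster, Ptbp1 itself (chr10:79854427-79864771, plus strand, GRCm38) had 7 UMIs in Ptbp1-Ctrl, or 25.9 counts per 1000000 UMIs (CPM, 10.4 to 53.4), but 0 UMIs in the Ptbp1-KO library. A count of 0 allows up to 9.22 CPM when 3 UMIs are taken as the floor, which is 2.81-fold below the 25.9 CPM of Ptbp1-Ctrl. That fold leaves out the counting error of the 7 UMIs. With it, the interval of the log2 ratio of Ptbp1-KO over Ptbp1-Ctrl reached up to -0.80. All other BCs had 197 and 1 UMIs, lower in the same library. Counted 3′ tags lie outside the floxed part, so they read the transcript that the deleted promoter would make and not the deletion. The paralogue Ptbp2, the neuronal family member, was at 274 and 228 CPM (log2 ratio of Ptbp1-KO over Ptbp1-Ctrl -0.27, -0.75 to 0.22). Ptbp3 had 8 and 3 UMIs. The study's methods describe female mice, yet in the cluster Xist had 0 UMIs in both libraries and the Y-linked Uty had 67 and 87 UMIs. Eif2s3y, also Y-linked, had 79 and 86 UMIs. The libraries were therefore alike in these genes but did not match the stated sex.

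The cells were shallow for BCs. Their summed counts were 270057 and 325238 UMIs, with a median of 1579 and 1891 UMIs per cell. The other BCs had medians of 2849 and 3947.5 UMIs, so the cluster stood at 0.554 and 0.479 of their depth, while it was at 1.10 and 1.09 times the median of its whole library. The doublet caller Scrublet marked 0 cells in either library and so gave no usable calls. Of all barcodes, 63 occurred in both libraries, 0 of them in the cluster.

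The cluster held ON cone bipolar markers, with type 5 markers above the other BCs. Grm6 was at 381 and 311 CPM, close to the 354 and 344 CPM of the other BCs. Trpm1 was at 800 and 763 CPM, below the 1521 and 1730 CPM of the other BCs. Isl1, a transcription factor of ON bipolar cells, was at 248 and 298 CPM against 446 and 489. The whole ON list of 10 genes summed to 3288 and 3075 CPM, below the 7798 and 8941 CPM of the other BCs. With both libraries summed, its 3172 CPM was also below clusters 9 (3342) and 21 (3531), which carried OFF markers. Among individual cells, Grm6 was detected in 42.4% (36.8 to 48.1) at a median of 1731 UMIs, and in 1.03% of rods, which should lack it, at a median of 1155 UMIs.

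OFF and rod bipolar markers were low. Grik1 was at 22.2 and 18.5 CPM, against 1550 and 1272 CPM in the other BCs. Its 3.56% of cells (1.79 to 6.28) overlapped the 2.31% in rods, and is read as background. The OFF list of 8 genes summed to 244 and 344 CPM, compared with 2202 and 1912 in the other BCs, and the OFF factors Fezf2 and Lhx3 had 0 UMIs. Most of that sum was Pcdh17, a protocadherin, at 156 and 184 CPM. Prkca was at 341 and 421 CPM, compared with 2536 and 2709 in the other BCs. It was detected in 36.9% of cells here, at a median of 1731 UMIs, and in 61.9% of rods, at a median of 1155. By class it was at 869 CPM in Slitrk5 cells and 153 in Sox6 cells, so its source was not resolved. The rod bipolar list of 6 genes summed to 418 and 541 CPM, against 3494 and 3783. The cone bipolar list of 6 genes summed to 1229 and 1027 CPM against 2361 and 2079. Its member Scgn, which encodes the calcium-binding secretagogin, was at 200 and 138 CPM, below the 302 and 334 CPM of the other BCs. Vsx1, a homeodomain factor of some cone bipolar types, was at 22.2 and 24.6 CPM against 123 and 111.

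**Figure D1:**
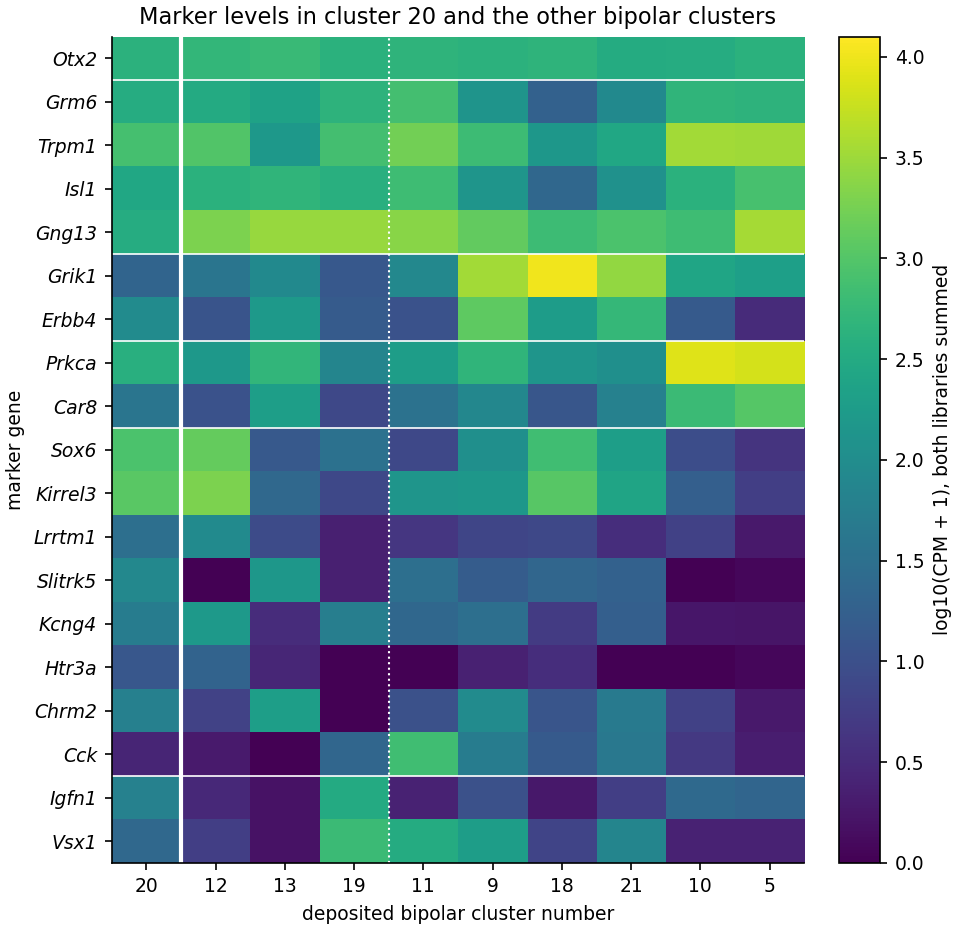
Levels of bipolar markers (rows) in the 10 clusters that hold BCs (columns), as log10(CPM + 1) with both libraries summed. Cluster 20 shares high Sox6 and Kirrel3 with cluster 12 and also with cluster 18, where Grik1 is high. It shares low Grik1 with clusters 11, 12, 13 and 19, and its Gng13 is the lowest of the 10.

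The type 5 list (Htr3a, Kcng4, Sox6, Slitrk5, Lrrtm1 and Kirrel3) summed to 2159 and 2165 CPM, compared with 613 and 626 CPM in the other BCs. All 6 genes were detected, and with both libraries summed only cluster 12, at 3577 CPM, had more than the 2162 CPM of cluster 20. Cluster 18, where the OFF marker Grik1 was at 10234 CPM, came next at 1825 CPM, with Sox6 at 697 and Kirrel3 at 1093 CPM. High Sox6 and Kirrel3 were therefore not particular to clusters with ON markers. Sox6, a transcription factor, was at 948 and 802 CPM against 206 and 237 in the other BCs. Kirrel3, an immunoglobulin adhesion protein, was at 1052 and 1175 CPM against 345 and 318. Slitrk5, a synaptic adhesion protein, was at 74.1 and 86.1 CPM against 21.8 and 20.5. Each of these 3 ranked second of the 10 BC clusters. Htr3a, a serotonin receptor subunit, had only 6 and 1 UMIs, and Kcng4, a potassium channel subunit, 12 and 19. On this basis the cluster is called type 5-like. The name came from markers listed with earlier results of these data known, and the clusters were themselves made from these genes, so the comparison is a description.

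The subtype markers lay in different cells. Besides Sox6, Kirrel3 and Slitrk5, 2 further genes were followed, both picked after the values were seen. Chrm2, a muscarinic receptor, stands with type 2 in the marker list but is also known from a type 5 subtype, and here the type 2 markers Syt2, Lhx3 and Irx6 had 0 UMIs. Igfn1 is the type 7 marker. Of the 309 cells, 223 held UMIs of exactly 1 of the 5 genes, 77 of none, 9 of 2 and 0 of 3. Sox6 and Kirrel3 were found together in 3 cells, where 15.3 would share them if the genes were independent. Sox6 and Slitrk5 shared 1 cell against 14.1. Kirrel3 and Slitrk5 shared 3 cells against 4.54, and each remaining pair without Sox6 shared 0 against 1.64 to 2.90. Sox6 was in the most cells (121), so its pairs had the largest expected overlap and the most room for a gap. Because these sparse counts miss many expressing cells, absence of a UMI is not absence of the gene.

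Sox6 cells formed the largest class, with 67 cells in Ptbp1-Ctrl (41.9%, 34.1 to 49.9) and 48 in Ptbp1-KO (32.2%, 24.8 to 40.4). Kirrel3 cells numbered 13 and 20, Slitrk5 cells 15 and 17, Chrm2 cells 12 and 9, and Igfn1 cells 10 and 12. The intervals of the 2 libraries overlapped in all 5 classes. For background, Sox6 was detected in 39.2% of the cluster and in 0.770% of rods, Kirrel3 in 12.6% and 2.45%, Slitrk5 in 11.7% and 0.0413%, Chrm2 in 7.12% and 0.217%, and Igfn1 in 7.44% and 0.196%. After thinning each cell to 1000 UMIs, Sox6 was in 33.9% of the cells kept in the cluster and in 59.7% of those in cluster 12.

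**Figure D2:**
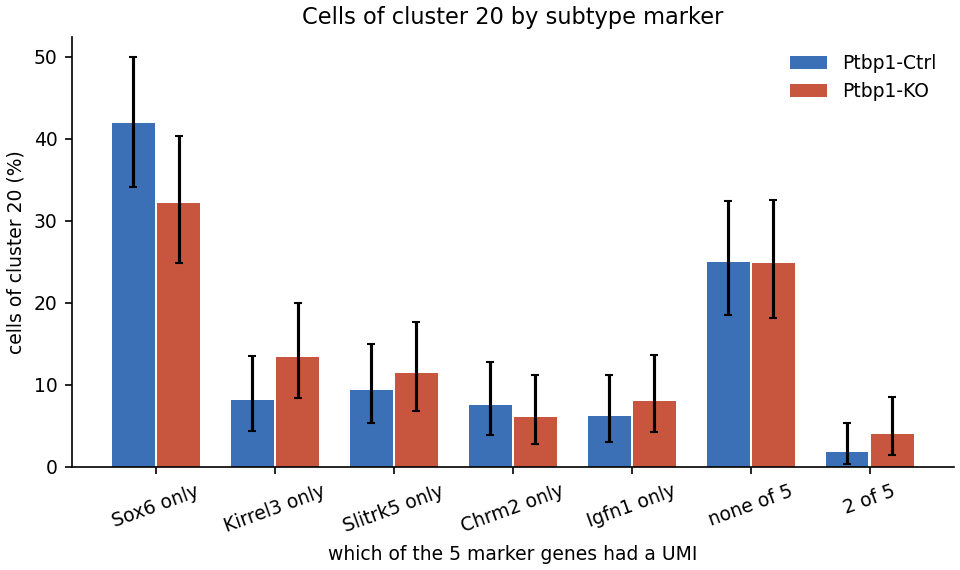
Cells of cluster 20 by the subtype marker they held, as percent of the cells of each library with 95% Clopper-Pearson intervals. Sox6 cells were the largest class in both libraries, and the intervals of the libraries overlap in every class.

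The 5 classes fell to 3 clusters of better covered cells. The measure was Pearson's r of log2(CPM + 10) over 5792 genes, given without a p since genes are not independent. Sox6 cells were nearest to cluster 12 (r = 0.886), as were Kirrel3 cells (r = 0.753). Slitrk5 cells (r = 0.793) and Chrm2 cells (r = 0.743) were nearest to cluster 13, and Igfn1 cells to cluster 19 (r = 0.763). The whole cluster was nearest to clusters 12 (r = 0.861), 13 (r = 0.827) and 19 (r = 0.788). These 3 clusters are called the nearest clusters below. The classes differ in UMIs, so their values of r are not set against each other.

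The classes also differed in genes other than their markers. Among Sox6 cells the receptor phosphatase Ptprt was at 716 and 522 CPM, against 26.4 and 48.3 CPM in the rest of the cluster. The sodium-calcium exchanger Slc8a1 was at 2588 and 2499 CPM there, against 205 and 312. Among Kirrel3 cells the protocadherin Pcdh7 was at 8772 and 5965 CPM against 393 and 367, and the neuregulin Nrg3 at 5512 and 4602 against 465 and 297. These 2 classes therefore shared a nearest cluster but not their leading genes.

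Slitrk5 cells had more of the GABA receptor subunit Gabrr3, at 978 and 797 CPM against 132 and 161 in the rest. Chrm2 cells had more of the RNA-editing family member Adarb2, at 6234 and 4299 CPM against 746 and 1361. Igfn1 cells had more of the adhesion protein Sdk1, at 1436 and 919 CPM against 127 and 44.3, and more Reln, the extracellular protein reelin, at 2074 and 2693 CPM against 374 and 286. Cntn5, a contactin adhesion protein, was at 10574 CPM in Sox6 cells, 9555 in Slitrk5 cells, 7337 in Chrm2 cells, 3799 in Kirrel3 cells and 19.9 in Igfn1 cells. Igfn1 cells thus lacked the gene that 86.4% of the cluster's cells held, and 9.40% of the cells of cluster 19 held it. Grm6 was at 416 CPM in Sox6 cells but 50.2 in Kirrel3 cells, and Trpm1 at 1313 CPM in Sox6 cells but 28.1 in Chrm2 cells.

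The sequences before the transcription start are shown for Ptbp1, whose promoter is the floxed part, and for Sox6 and Chrm2, the class markers whose window held a CRX/OTX motif. Otx2, the bipolar and photoreceptor homeodomain factor, was at 422 and 434 CPM in the cluster. The windows are the 250 bases before a RefSeq start (GRCm38.p6), 5′ to 3′ on the gene's strand. Capitals mark the motifs searched on both strands, TAATCC (CRX/OTX), TAATTA (LIM/VSX homeodomain) and CAGATG (E-box).
Ptbp1: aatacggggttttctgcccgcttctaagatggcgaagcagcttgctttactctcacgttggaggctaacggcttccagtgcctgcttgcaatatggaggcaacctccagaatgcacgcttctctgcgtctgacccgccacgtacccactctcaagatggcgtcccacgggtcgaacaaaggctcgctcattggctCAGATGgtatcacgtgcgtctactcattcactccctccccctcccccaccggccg
Sox6: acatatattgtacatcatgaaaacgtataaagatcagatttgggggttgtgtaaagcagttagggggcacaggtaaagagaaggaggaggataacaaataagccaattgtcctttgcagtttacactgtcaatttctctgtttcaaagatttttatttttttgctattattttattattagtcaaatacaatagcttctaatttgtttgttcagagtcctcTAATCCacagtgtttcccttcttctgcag
Chrm2: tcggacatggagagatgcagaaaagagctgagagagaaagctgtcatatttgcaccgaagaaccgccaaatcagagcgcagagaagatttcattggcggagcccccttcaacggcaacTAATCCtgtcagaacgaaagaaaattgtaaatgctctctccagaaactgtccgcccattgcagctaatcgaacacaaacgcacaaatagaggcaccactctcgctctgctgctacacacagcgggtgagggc

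Ptbp1 is chr10:79854182-79854431 (plus strand), Sox6 the first of 6 windows, chr7:115801610-115801859 (minus strand), and Chrm2 chr6:36387834-36388083 (plus strand). The Sox6 window is the innermost of the gene's alternative starts and the other 5 hold no CRX/OTX motif. That motif stood in 6.25% of 32851 windows of all genes, the LIM/VSX motif in 4.84% and the E-box in 14.4%. The windows of Slitrk5, Igfn1 and Cntn5 held none of the 3, and Kirrel3 was not searched. Of the 20 leading genes named below, 16 had windows, of which 0 held the CRX/OTX motif, 1 the LIM/VSX motif (Gm20658) and 3 the E-box. No match says only that these letters are not in the window.

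The clearest shared feature of the cluster was a low share of ribosomal protein transcripts. Over 78 genes, they made up 1.48% of UMIs (1.43 to 1.53) in Ptbp1-Ctrl and 1.52% (1.48 to 1.57) in Ptbp1-KO. The other BCs had 3.33% and 3.31%, and of the other 9 BC clusters the lowest was cluster 10, of rod bipolar cells by its markers, with 2.16% and 1.86%. Per cell the median was 1.16%, with 0.648% at the 10th and 2.77% at the 90th percentile, and 289 of 309 cells (93.5%) lay below the 3.42% of the median cell of the nearest clusters.

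Depth moved with this result and was matched. Among cells with 1312 to 2262 UMIs, the cluster had 1.54% in Ptbp1-Ctrl (78 cells) and 1.25% in Ptbp1-KO (77 cells). In that range the nearest clusters had 4.22% (156 cells) and 4.21% (13 cells), so the gap to them was larger at matched depth. All other BCs in that range had 3.42% (669 cells) and 1.86% (272 cells), so in Ptbp1-KO the gap to them was smaller than over all depths. Rod transcripts also moved with it. All 8 genes of the rod marker list were detected in the cluster, and they summed to 10009 and 11595 CPM against 7041 and 5815 in the other BCs. Their part in the result was not tested.

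**Figure D3:**
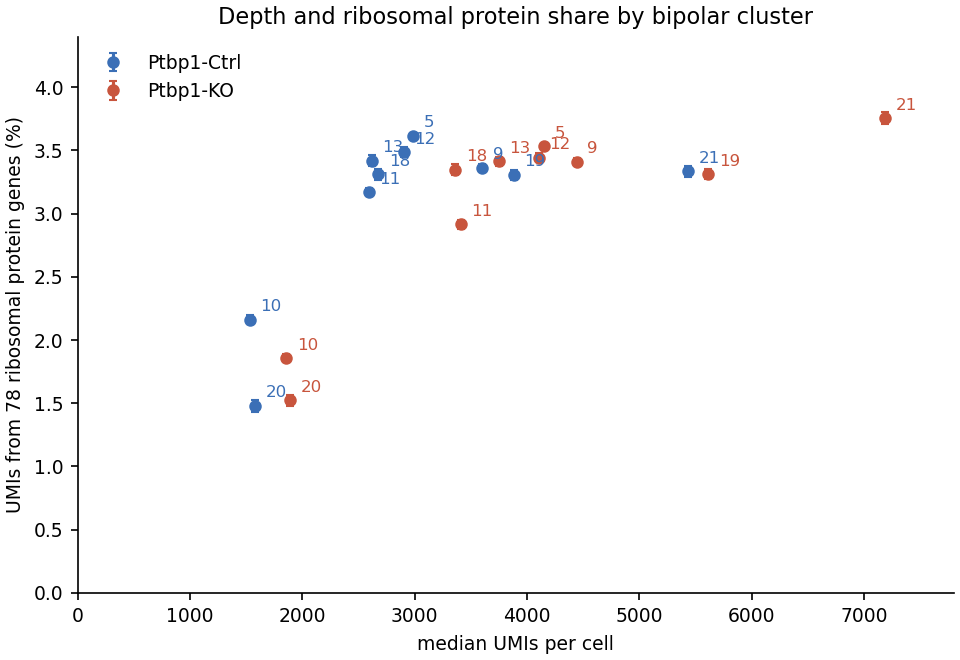
Median UMIs per cell (horizontal axis) and percent of UMIs from 78 ribosomal protein genes (vertical axis) for each of the 10 BC clusters in each library. Cluster 20 lies lowest, at 1.48% and 1.52%, and cluster 10, of similar depth, lies next at 2.16% and 1.86%.

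Cells with the same single marker were compared inside and outside the cluster. Sox6 cells had 1.55% ribosomal protein UMIs in the cluster (115 cells) and 3.22% in the nearest clusters (408 cells). Kirrel3 cells had 1.32% against 4.06%, Slitrk5 cells 1.70% against 3.32%, Chrm2 cells 2.16% against 3.36% and Igfn1 cells 0.979% against 3.31%. Gng13, the G protein gamma subunit of the mGluR6 cascade, was lower too. It was at 379 CPM in Sox6 cells of the cluster and 2138 outside, at 318 and 1419 in Kirrel3 cells, at 290 and 2970 in Slitrk5 cells, at 281 and 2839 in Chrm2 cells and at 298 and 2936 in Igfn1 cells. Both measures were lower inside the cluster in 5 of 5 classes. They were picked after the whole cluster was seen to be low in them, so the classes are not separate support. Depth was not matched here, as the cells inside had a median of 1570 to 2277.5 UMIs by class and those outside 3172.5 to 4564.5.

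**Figure D4:**
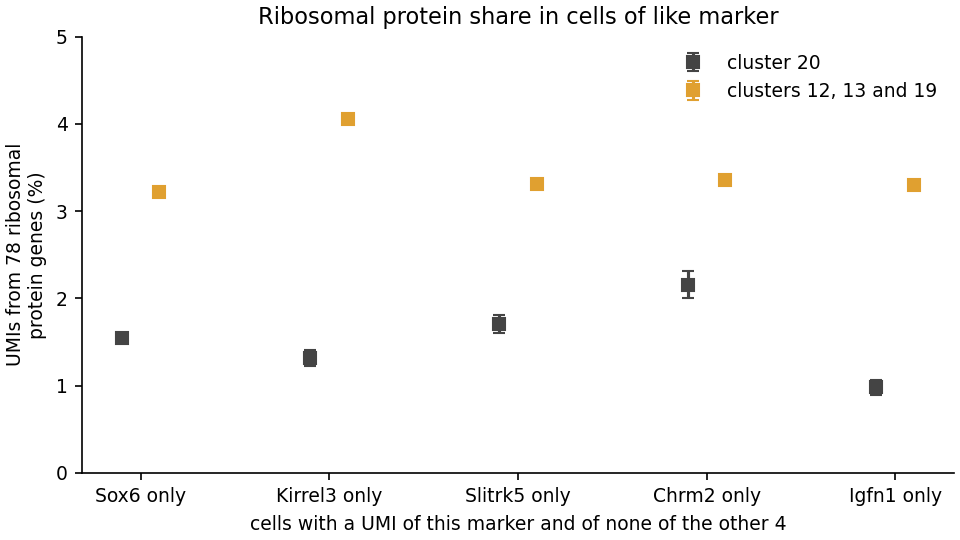
Percent of UMIs from ribosomal protein genes in cells holding 1 subtype marker, in cluster 20 and in clusters 12, 13 and 19, both libraries summed, with 95% Clopper-Pearson intervals. In each of the 5 classes the cells of cluster 20 lie lower, from 0.979% to 2.16% against 3.22% to 4.06%.

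Genes lower than in the nearest clusters were mostly short. Of 4652 genes tested, 461 (9.91%) were past 2-fold lower in both libraries and 55 (1.18%) past 2-fold higher. With genes sorted by genomic span into 4 bins of equal size, 358 of 1156 genes in the shortest bin (31.0%, median span 6.90 kb) were lower, and 2 of 1156 in the longest (0.173%, 195 kb). The median log2 ratio went from -0.77 in Ptbp1-Ctrl and -0.86 in Ptbp1-KO in the shortest bin to 0.28 and 0.26 in the longest. Cluster 10 over cluster 5, the shallow and deep clusters with rod bipolar markers, went from -0.62 and -0.72 to 0.26 and 0.34, with 242 of 4275 genes (5.66%) past 2-fold lower. Of the genes tested in both comparisons, 414 were lower in cluster 20 than in its nearest clusters and 221 lower in cluster 10 than in cluster 5. They shared 173, which is 41.8% of the former and 78.3% of the latter. Whether introns were counted is not given in the sources used here.

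Named by size of ratio, the lower genes were Bex1, Gm32585, Bex4, Tmsb10, Vsx1, Gng13, Mif, Camk2n2, Sncb and Fscn1. Bex1, a small neuronal adaptor protein, was at 18.5 CPM in both libraries (log2 -3.50 and -3.38). Tmsb10, a thymosin that binds actin monomers, was at 193 and 163 CPM (log2 -2.84 and -3.08). Gng13 was at 359 and 341 CPM (log2 -2.57 and -3.09). Sncb, beta-synuclein of the presynapse, was at 248 and 234 CPM (log2 -2.44 and -2.59). Of the 10 genes, 8 were also lower in cluster 10 than in cluster 5 in both libraries, the exceptions being Gm32585 and Vsx1. The 10 higher genes were Gm21738, Gm10800, Gm20658, Gm49127, Gm10801, Gm14211, Gm11817, Fscn2, Srrm4os and Gm47167. Of these, 8 were also higher in cluster 10 than in cluster 5 in both libraries, the exceptions being Gm49127 and Gm11817. Only Fscn2, a photoreceptor fascin at 96.3 and 111 CPM (log2 1.53 and 1.81), is a well known gene. Gm10800, at 574 and 996 CPM, Gm10801 and Gm21738 are predicted genes in repeated sequence, where reads of copies cannot be separated.

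Against all other BCs, 183 of 4733 genes (3.87%) were past 2-fold higher in both libraries and 537 (11.3%) past 2-fold lower. The 20 with the largest ratio were Gm49127, Gm20658, Slc7a15, Fer1l6, E130114P18Rik, Gm11817, Fndc1, Adamtsl3, A630023P12Rik, P4ha2, Ptprt, 5033421B08Rik, Gm5149, Kcnd2, Yap1, Ptpn3, P3h2, A330015K06Rik, Hs3st4 and Cntn5. In cluster 20 they were highest of the 10 BC clusters for 12 genes and second for the other 8. Among the other clusters the highest was one of the nearest clusters for all 20, cluster 12 for 15 of them. Of the 20, 14 overlap another annotated gene, and since the strand used in counting is not given, the UMIs of such pairs cannot be told apart.

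Cntn5 (chr9:9660891-10904775, minus strand), a contactin adhesion protein, was at 7835 and 6850 CPM, against 1590 and 1815 in the other BCs (log2 2.30 and 1.92). Cluster 12 had 7263 CPM, cluster 13 6865 and cluster 19 191, so the gene was shared with 2 of the nearest clusters. Hs3st4 (chr7:123982869-124398989, plus strand), a heparan sulfate sulfotransferase, was at 1737 and 1208 CPM against 329 and 316. Kcnd2 (chr6:21215503-21729805, plus strand), the Kv4.2 potassium channel, was at 370 and 403 CPM against 66.1 and 95.2. Yap1, the Hippo pathway co-activator, was at 51.8 and 55.3 CPM against 12.3 and 13.4. The gene ranked highest, Gm49127, an antisense RNA to the cadherin gene Cdh9, was at 59.2 and 58.4 CPM against 4.94 and 5.95.

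The 10 genes furthest below the other BCs were Lrrtm4, Ntng1, Nxph1, Grik1, Asic2, Sorcs3, Slit2, Sebox, Adrb1 and Cntnap5a. Lrrtm4, a leucine-rich synaptic protein known from rod bipolar cells, was at 29.6 and 33.8 CPM, against 3357 and 3848. Sebox, a homeobox factor of rod bipolar cells, had 1 and 2 UMIs. Ntng1, netrin G1, had 2 and 0 UMIs against 1017 and 924 CPM in the other BCs, and Slit2, an axon guidance ligand, 1 and 10 UMIs against 1129 and 1001 CPM. For 0 of these 10 was the highest cluster one of the nearest.

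By function, the counts below stand beside the 3.87% higher and 11.3% lower of all genes tested. The mGluR6 cascade list had 13 measured genes, of which 0 were past 2-fold higher and 3 lower than in the other BCs. The lower 3 were Gng13, Pcp2, a Go modulator at 578 and 449 CPM against 2307 and 2468, and Rgs7, the GTPase-activating partner at 415 and 397 against 1005 and 1053. The scaffold receptor Gpr179 was at 189 and 234 CPM against 205 and 251. The list's median log2 ratio was -0.43 in Ptbp1-Ctrl and -0.21 in Ptbp1-KO, beside -0.02 in both libraries over all genes tested.

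Among 23 transcription factors, 3 were higher and 10 lower (43.5%). Nfia, a nuclear factor I protein, was at 1681 and 1138 CPM against 403 and 443. Besides Sox6, its relative Sox5 was at 193 and 237 CPM against 88.1 and 83.9. Neurod4, a proneural factor, was at 333 and 338 CPM against 760 and 700. The list's medians were -0.80 and -0.71.

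Adhesion molecules had 7 genes higher (21.2%) and 9 lower (27.3%) of 33, with medians of 0.20 and 0.30. Nrxn3, a presynaptic neurexin, was the most abundant at 17737 and 16791 CPM against 11274 and 10885. The teneurin Tenm2 was at 3262 and 3339 CPM against 1245 and 1253, and the cadherin Cdh9, overlapped by the antisense RNA named above, at 1189 and 704 against 259 and 256. Cdh11, another cadherin, was at 963 and 993 CPM against 292 and 311. Several of the most abundant adhesion genes thus stood above the other BCs while the list as a whole went both ways.

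Ion channels had 2 genes higher and 0 lower of 11, with a median of 0.76 in both libraries. The 2 were Kcnd2 and Cacna1h, a T-type calcium channel at 196 and 258 CPM against 78.2 and 100.4. Glutamate receptors had 0 higher and 3 lower of 9, with medians of 0.28 and 0.35. The AMPA receptor subunit Gria2 was at 948 and 821 CPM against 442 and 427. GABA and glycine receptors had 0 higher and 1 lower of 10, near the share over all genes, with medians of -0.23 and -0.29. The GABA receptor subunit Gabrr2 was at 792 and 550 CPM against 414 and 405.

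Ribbon synapse and release genes had 0 higher and 2 lower of 19 (10.5%, near the share over all genes), with medians of 0.08 and 0.16. Rims2, an active zone protein, was at 2896 and 2724 CPM against 1714 and 1589, the highest of the 10 clusters, and Cacna1d, an L-type calcium channel, at 578 and 661 against 321 and 397. Calcium-binding proteins had 0 higher and 4 lower of 9, with medians of -0.59 and -1.06. Calm2, a calcium sensor, was at 178 and 154 CPM against 454 and 420. Of 3 measured dissociation stress genes, 0 were past 2-fold either way in both libraries. The ribosomal protein and oxidative phosphorylation lists were added after the values were seen, and had 39 of 74 and 32 of 81 genes lower and 0 higher.

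Markers of other retinal cells were otherwise low. The cone list of 8 genes summed to 322 and 517 CPM, below the 1796 and 1570 CPM of the other BCs, and the Müller glia (MG) list to 344 and 283 CPM against 273 and 281. Amacrine markers summed to 48.1 and 61.5 CPM, above the 26.6 and 37.2 CPM of the other BCs, with Gad2 and Tfap2a at 0. Microglial markers summed to 29.6 and 30.7 CPM, above 15.2 and 22.5, with 4 of 6 genes at 0. Retinal ganglion cell markers summed to 11.1 and 21.5 CPM against 12.9 and 17.6, and horizontal cell markers to 14.8 and 24.6 against 13.1 and 12.3. Vessel markers summed to 11.1 and 3.07 CPM, astrocyte markers to 7.41 and 0, and red blood cell markers to 0 in both.

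The share of the cluster did not differ detectably between the libraries. It held 5.01% of BCs in Ptbp1-Ctrl (4.28 to 5.82, 160 of 3194) and 5.85% in Ptbp1-KO (4.97 to 6.83, 149 of 2549). The ratio was 1.17 (0.927 to 1.47). Of all cells it held 0.974% and 1.03%, a ratio of 1.05 (0.837 to 1.32). These Clopper-Pearson and ratio intervals say nothing of variation between mice.

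Between the libraries, 13 of 1973 genes (0.659%) were past 2-fold higher in Ptbp1-KO and 10 (0.507%) past 2-fold lower. The median log2 ratio over all 1973 was -0.01, and the 5th and 95th percentiles were -0.56 and 0.61. The counting intervals of all 23 genes excluded 0, but these genes were picked for passing 2-fold above a minimum of UMIs. At such counts that outcome was largely fixed by the choice, so it adds no support to the calls.

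The 10 largest increases were Nmnat3, Tmtc1, BC005537, Ip6k2, Sgcz, Pld3, Gm15555, Vwc2l, Atp5md and Kctd8. Nmnat3 (chr9:98287435-98420438, plus strand), an NAD-synthesising enzyme, was at 144 and 452 CPM (log2 1.65, 1.13 to 2.19), beside a log2 ratio of 0.78 in the other BCs, 1.40 in cluster 13 and 1.05 in cluster 19. Tmtc1, an endoplasmic reticulum glycosyltransferase, was at 63.0 and 160 CPM (1.34), and Sgcz, zeta-sarcoglycan, at 137 and 295 CPM (1.11), beside 1.03 (0.80 to 1.26) in cluster 12. These increases were therefore shared with nearest clusters for Nmnat3 and Sgcz, while Tmtc1 was at 0.35, 0.30 and 0.02 in clusters 12, 13 and 19. Vwc2l, a secreted von Willebrand C domain protein, was at 222 and 467 CPM (1.07). The remaining ratios ran from 1.02 (Kctd8) to 1.18 (BC005537).

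The 10 largest decreases were Gm47283, Mid1, Atp2c1, Dach1, Rapgef6, Hspa5, Maml3, Cox7b, Rbbp4 and Matr3. Gm47283, annotated on chromosome Y near the pseudoautosomal boundary where copies share reads, was at 1907 and 323 CPM (log2 -2.56, -2.88 to -2.26), and the other BCs had a like ratio of -2.47. Mid1, which reaches into the pseudoautosomal region of chromosome X, was at 241 and 76.9 CPM (-1.65), and at -0.99 in the other BCs. Atp2c1, the Golgi calcium pump, was at 226 and 92.2 CPM (-1.29), beside -1.02 in the other BCs. Cox7b, a cytochrome c oxidase subunit, was at 311 and 151 CPM (-1.05), beside -1.21. These 4 were thus also lower in Ptbp1-KO in the summed other BCs. For Gm47283, Mid1 and Cox7b the interval lay below 0 in every BC cluster. Atp2c1 was at -0.07 (-0.61 to 0.46) in cluster 18 and -0.28 (-0.74 to 0.19) in cluster 19. In every other BC cluster its interval lay below 0, with a ratio of -1.61 in cluster 5. The other 6 of the 10 genes were at -0.23 to 0.09 in the other BCs. Of these, Dach1 (chr14:97786853-98169765, minus strand), a transcription factor, was at 344 and 145 CPM (-1.25, -1.79 to -0.73), and Hspa5, an endoplasmic reticulum chaperone, at 174 and 83.0 CPM (-1.07). In cluster 12 both were also lower in Ptbp1-KO, Dach1 at -0.48 (-0.68 to -0.28) and Hspa5 at -0.66 (-1.09 to -0.24).

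**Figure D5:**
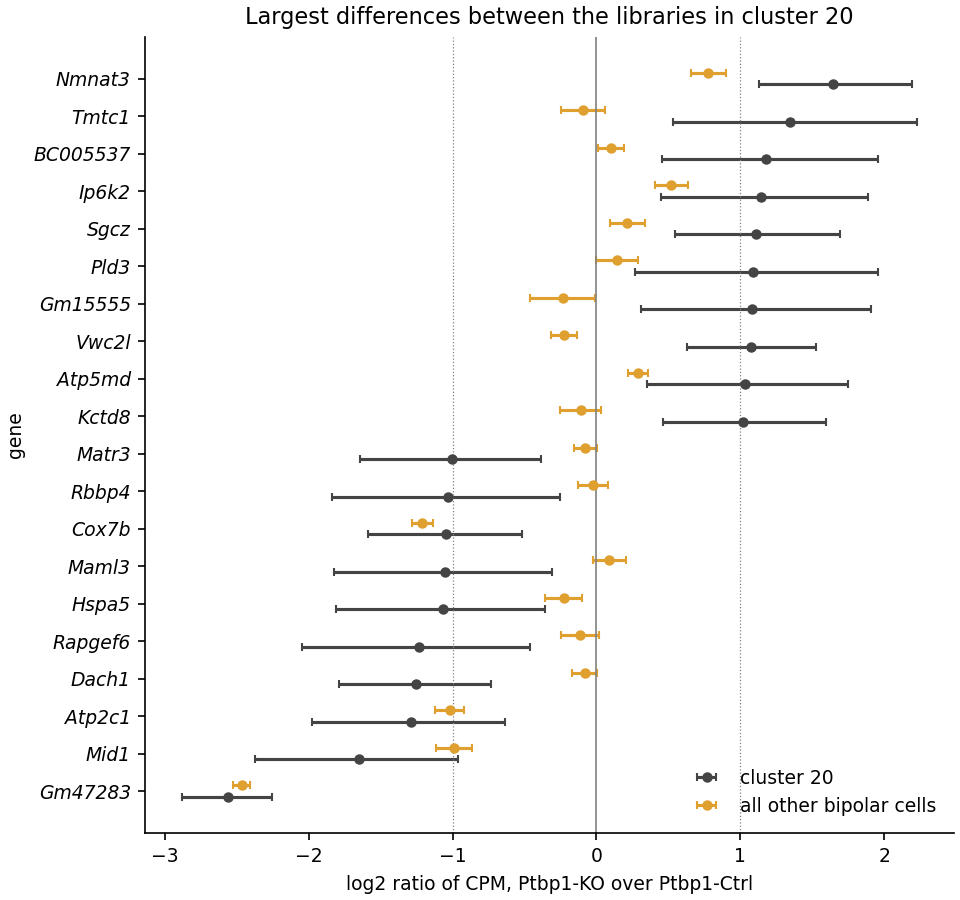
Log2 ratio of Ptbp1-KO over Ptbp1-Ctrl for the 20 genes named, in cluster 20 with 95% counting intervals and in all other BCs. Gm47283 lies at -2.56 in the cluster and -2.47 in the other BCs, whereas Vwc2l lies at 1.07 and -0.22.

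Since marker classes took different shares of the libraries, the 20 genes were also read within Sox6 cells (67 and 48) and in the remaining cells. Dach1 was lower in both, with log2 ratios of -2.04 and -0.80, and Sgcz higher in both, with 1.40 and 2.29. Gm47283 was at -2.58 and -2.56. Nmnat3 had 2 and 1 UMIs in Sox6 cells, and in the remaining cells 244 and 642 CPM (1.39, 0.86 to 1.95). Nmnat3 was at 13.9 CPM in Sox6 cells, 716 in Slitrk5 cells and 933 in Igfn1 cells, and Vwc2l at 13.9, 930 and 0 CPM. For these genes the make-up of the cluster in each library and the level within a class cannot be told apart.

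In the 10 functional lists other than the added ones, 88 members passed the filter between the libraries, and 0 were past 2-fold in either direction, beside 0.659% and 0.507% of all genes. With 88 genes tested, a count of 0 is near those shares, and Ptbp1 was below the filter. Median log2 ratios were -0.06 for the mGluR6 cascade, 0.11 for glutamate receptors, -0.03 for GABA and glycine receptors, 0.20 for ribbon synapse and release and 0.09 for ion channels. They were -0.16 for calcium-binding proteins, 0.04 for transcription factors, 0.00 for adhesion molecules and -0.16 for 3 dissociation stress genes. Over all 5439 genes with at least 20 UMIs the median was 0.01. In the added lists, 0 ribosomal protein genes passed 2-fold, and 1 oxidative phosphorylation gene was higher (Atp5md) and 1 lower (Cox7b). In neither library did the type 5 markers Sox6 and Kirrel3 pass 2-fold against the other, with log2 ratios of -0.24 and 0.16.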

How the data were processed

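Droplet scRNA-seq was made from dissociated P30 retina, 1 library per genotype. The authors aligned reads to mm10 with Cell Ranger 7.0.1, filtered, clustered (Louvain) and named cells in Seurat, and deposited UMI counts per gene and cell for 25778 genes, with a percent of mitochondrial UMIs and a cluster number for each cell. Annotation version and intron counting are not given in the sources used here. Deposited cells spanned 701 to 9998 UMIs. 2 columns of per-cell values were not used.

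The members and lists were chosen with earlier results of these data known. CPM came from the UMIs of all cells of a group and library combined, over their total. Ratios carried exact conditional binomial intervals and shares Clopper-Pearson intervals. A count of 0 was set to 3. Against other BCs, genes needed 50 UMIs in one of the summed groups over both libraries and 50 CPM in one group, and past 2-fold had to hold in both libraries. Between libraries they needed a mean of 100 CPM and 50 UMIs. The design allowed no test, and no p-value was computed. Named genes were the 20 highest and 10 lowest against other BCs, the 10 highest and lowest between libraries, the markers and list examples. The 10 highest and lowest against the nearest clusters, the marker classes, depth matching, spans, motifs and added lists were chosen after seeing the data. Coordinates came from GENCODE vM21 (GRCm38). Ratios were tested on simulated data. Python 3.11.15, scanpy 1.11.5, scipy 1.17.1, edgeR 4.0.16 (TMM) and DESeq2 1.42.0 (size factors) were used. Some genes of the lists are not reported here.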

Additional observations from a re-analysis of the deposited data

Results flagged for a closer look

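In 5 genes the log2 ratio of Ptbp1-KO over Ptbp1-Ctrl had opposite signs in the cluster and in all other BCs, with counting intervals on opposite sides of 0. The differences were not tested, since each group is 1 library, and 42 of 1973 genes met this description, of which the 5 given are those whose log2 ratios lay furthest apart. Gm15555, antisense to Samsn1, was at 1.08 (0.31 to 1.91) in the cluster and -0.24 in the other BCs. Vwc2l was at 1.07 (0.63 to 1.53) and -0.22, and it lay mainly in cells other than Sox6 cells. Nxnl1, a photoreceptor thioredoxin-like gene, was at 1.01 (0.25 to 1.82) and -0.22, with 21 and 51 UMIs in the cluster. The cadherin Cdh10 was at -0.94 (-1.69 to -0.21) and 0.15, with 43 and 27 UMIs. Lhfpl3 was at 0.70 (0.23 to 1.17) and -0.34, with 60 and 117 UMIs.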

How the results depend on the processing

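No paired analysis was possible because each genotype has 1 library. Over the main results, 51 values under the alternatives stayed within the set range and 9 moved. For the named genes, 105 values stayed and 15 moved against other BCs, and 98 stayed and 2 moved between the libraries. Of the 10 list medians between the libraries, 4 changed sign after thinning (glutamate receptors -0.04, GABA and glycine receptors 0.06, ion channels -0.06, transcription factors -0.14) and 1 without the tenth of highest doublet score (adhesion molecules 0.01), so no direction is read from them. Genes past 2-fold higher than other BCs numbered 106 without cluster 5, 8257 with no minimum and 55 against the nearest clusters (added after seeing the data), and genes lower 863 with no minimum. Between the libraries, a minimum mean of 200 CPM left 4 higher and 3 lower, and no minimum gave 2318 and 2841. The fewer genes tested give the former, and genes of few UMIs the latter. The PTB family median, of 1 gene, was -0.89 after thinning to 1000 UMIs, which left out 23 and 6 cells, and the cause was not tested. Of the 13 and 10 genes called between the libraries, 9 and 10 remained with TMM scaling, 13 and 10 with DESeq2 size factors, 3 and 3 after thinning (where fewer genes passed the filter, 11 and 10 genes were called in all, and 7 and 8 of the 10 named each way were still past 2-fold), 9 and 9 without the tenth of cells of highest doublet score, and 8 and 8 without the tenth of highest rod share. The ratio of shares of BCs was 1.14 without the tenth of BCs of highest doublet score. The 270057 and 325238 UMIs of the cluster limit what can be seen of genes at few CPM.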
